A study of Mus musculus with 16 samples.

Results

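Adipokines are the proteins by which fat cells signal to other tissues, and C/EBP proteins are transcription factors that act while fat cells form. Transcripts of 9 such genes were followed in mouse brown adipocytes. The adipokine genes were Adipoq, Lep, Retn, Cfd, Nampt and Rarres2, and the C/EBP genes were Cebpa, Cebpb and Cebpd. They were chosen by gene symbol and make up 9 of the 20295 genes in the count table. All 9 passed the filter on low counts, which kept 12786 genes for testing.

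RNA sequencing had been done on BAT-LgT cells, a line of mouse brown preadipocytes immortalized with the large T antigen of SV40, which had been turned into adipocytes with dexamethasone, IBMX, T3 and insulin in every group. On day 7 the cells received DMSO as vehicle, triacsin C (spelled Triascin C in the labels), which blocks long-chain acyl-CoA synthetases, or etomoxir, which blocks carnitine palmitoyltransferase in mitochondria. After 1 h, SR-3420 was added or left out for 3 h. SR-3420 is a ligand of ABHD5 that frees this protein to activate the lipase ATGL, so lipolysis starts without a signal from an adrenergic receptor, and the inhibitors ask whether a response needs fatty acids to be activated or to enter mitochondria. The labels give SR-3420 as 10 µM, a dose that differs from the one in the published figure legend, triacsin C as 5 µM and etomoxir as 50 µM. The 6 groups were vehicle (n = 2), SR-3420 (n = 2), triacsin C (n = 3), triacsin C + SR-3420 (n = 3), etomoxir (n = 3) and etomoxir + SR-3420 (n = 3). The published legend describes replicates as independent experiments, and vehicle replicate 1 and SR-3420 replicate 2 were not analysed here.

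The 16 libraries held 9452861 to 25670624 counted reads, with a median of 13602886. By group the totals were 10097582 and 14032494 for vehicle, 15667121 and 19156037 for SR-3420, and 9452861 to 15818919 for triacsin C. They ran from 10659704 to 16265789 for triacsin C + SR-3420, from 10993504 to 14993463 for etomoxir and from 13173278 to 25670624 for etomoxir + SR-3420.

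Adipokine genes are switched on late in the formation of a fat cell. In the usual sequence, C/EBPβ and C/EBPδ appear early after the hormones that start differentiation, and C/EBPα follows and acts with PPARγ to keep the genes of the mature adipocyte on. Brown adipocytes burn fatty acids for heat and secrete several of the same adipokines as white adipocytes.

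The labelled cell type was checked against its markers. The 6 adipocyte markers (Fabp4, Plin1, Pparg, Cidec, Lipe and Lpl) summed to 7018 to 18890.5 CPM (counts scaled to the size of the library) per sample, and Fabp4 was the most abundant at a median of 6004 CPM. Of the brown markers, Ucp1, the uncoupling protein that makes heat, had a median of 2.23 CPM and 5 to 57 counts per sample. Dio2, which activates thyroid hormone, had 0 counts in 12 of the 16 samples. The 9 brown markers summed to 126 to 364 CPM, with Cox8b the most abundant, and 8 of them passed the filter. Pdk4 and Plin2, a pair of genes known to answer fatty acids, served to check that SR-3420 had acted. The paper names both as induced by SR-3420 in this experiment, so their rise is not an independent check. On the log2 scale Pdk4 rose with SR-3420 by 2.26 over vehicle, by 1.19 over triacsin C and by 1.61 over etomoxir, and Plin2 rose by 2.10, 1.23 and 1.43 in the same order. Their adjusted p lay between 3.05e-05 and 0.000494 in edgeR's quasi-likelihood test. With only the compared groups in the model, Plin2 was not called without inhibitor (2.08, adjusted p = 0.0596).

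The response to SR-3420 was measured in 3 arms, each setting SR-3420 against its own control: SR-3420 against vehicle without an inhibitor (the vehicle arm), and SR-3420 added to triacsin C or to etomoxir. A gene was called when the edgeR quasi-likelihood test gave an adjusted p (Benjamini-Hochberg over the 12786 genes) under 0.05, and log2 fold changes are given with a standard error (SE). Without inhibitor, 1 of the 9 genes was called, against 7.54% of all genes tested. With triacsin C, 5 of 9 fell and none rose, against 36.9% of all genes called in either direction. With etomoxir, 4 fell and 1 rose, against 25.3%. In the mean response over the 3 arms, 5 fell and 2 rose, against 46.2%. The median log2 fold change of the 9 genes in these comparisons was -0.22, -1.01, -0.41 and -0.56, where that of all genes was -0.00, 0.02, 0.01 and 0.01. With library size alone as the scaling, without TMM factors, the median of all genes for SR-3420 against vehicle shifted to -0.12. With the replicate number added to the edgeR model as a block, 1 of the 9 genes rose and 3 fell in this comparison, against 19.1% of all genes called. Calls that the block added in other comparisons are given in the closing section.

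Groups that did not overlap at all were counted as well. Between SR-3420 and vehicle the samples of 4 of the 9 genes did not overlap, where 44% of all genes tested did not. In the triacsin C arm this held for 5 of 9 (55.9% of all genes) and in the etomoxir arm for 5 of 9 (32.3%). Samples with the same replicate number were also set beside each other. In all 7 such pairs over the 3 arms, the SR-3420 sample was lower for Adipoq, Retn, Cfd and Rarres2. Cebpa was lower in 6 of 7, Cebpb higher in 6 and Cebpd higher in 5, whereas Nampt was higher in 5 and Lep in 4.

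**Figure D1:**
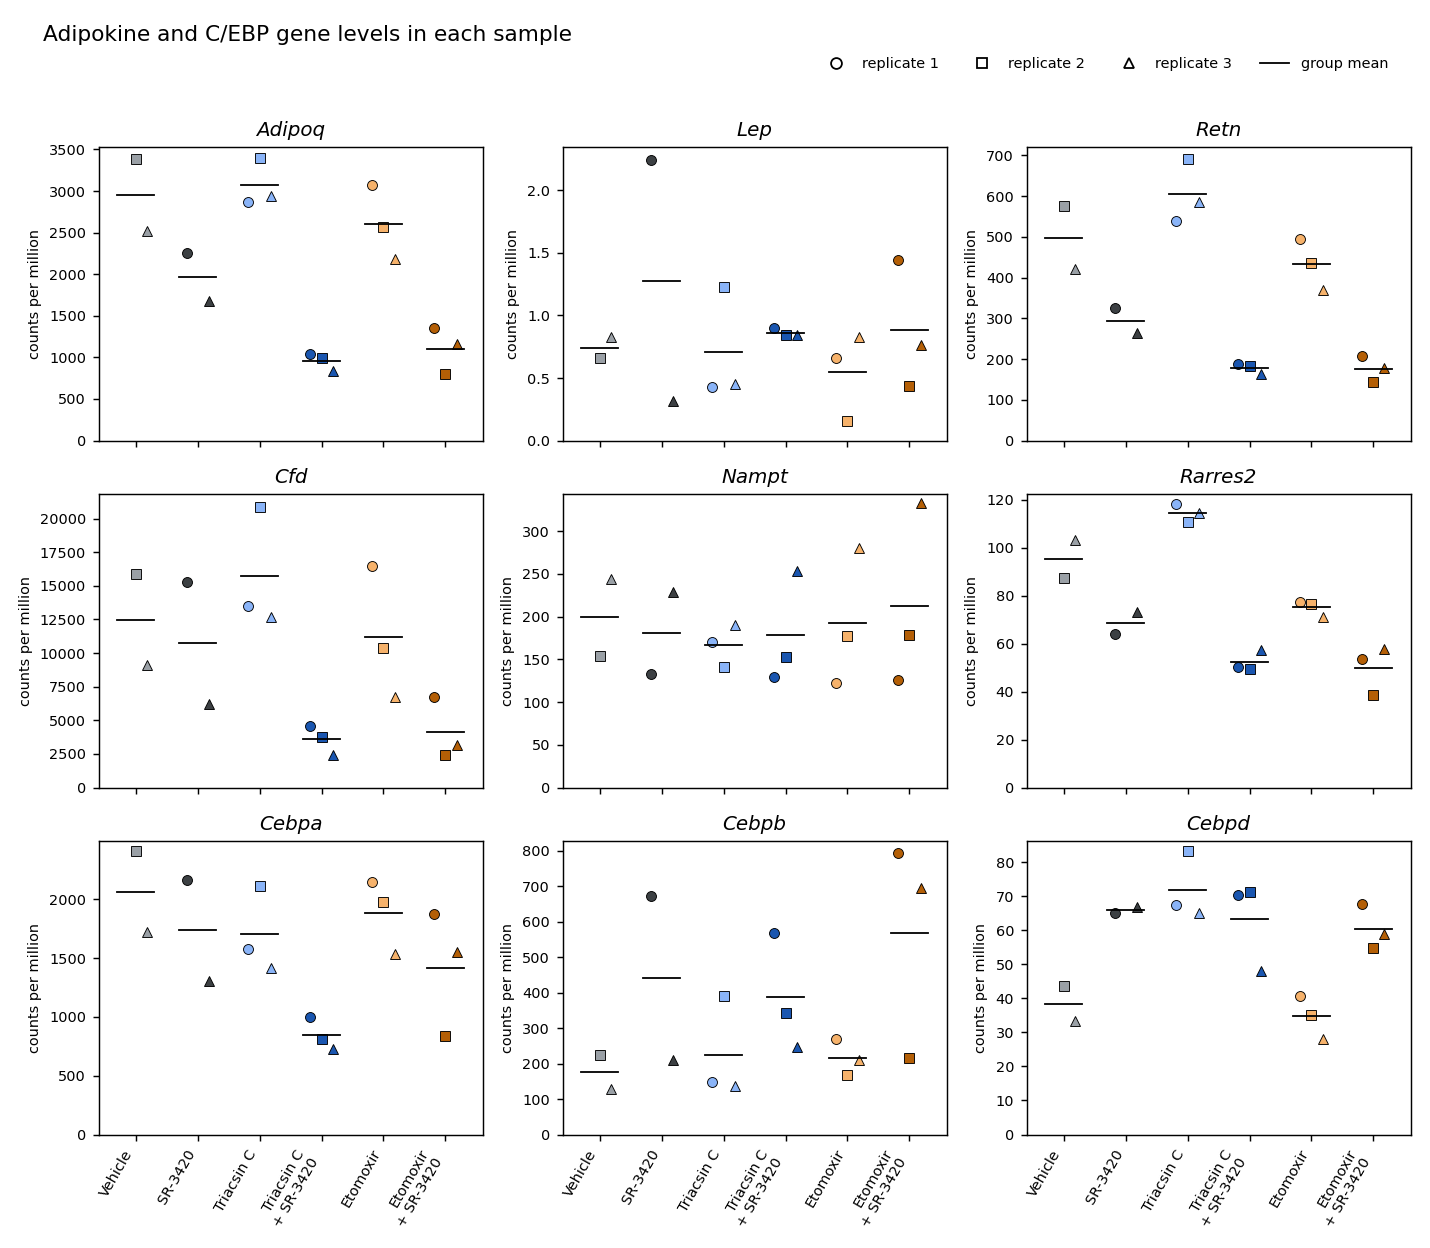
Level of each gene in CPM (y axis, from 0) in every sample of the 6 groups (x axis). Each point is a sample, its shape gives the replicate number and the line is the group mean; the 3 triacsin C + SR-3420 samples of Adipoq lie between 842 and 1039 CPM, under all of the triacsin C samples at 2863 to 3396 CPM.

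Levels of the 9 genes were compared as CPM per kilobase of counted length. On this scale the medians over 16 samples were 8594 for Cfd, 1802 for Adipoq, 597 for Retn, 591 for Cebpa, 188 for Rarres2, 156 for Cebpb, 38.2 for Nampt, 31.9 for Cebpd and 0.245 for Lep. Cfd ranked 2 of the 12786 genes tested, Adipoq 10 and Lep 12145. Neighbours in this order overlapped over the samples: the lowest sample of Cfd (2620.3) was under the highest of Adipoq (2757), and the ranges of Retn (247 to 1189.7), Cebpa (274 to 912), Rarres2 (99.8 to 307) and Cebpb (84.1 to 523) each reached into that of the gene before. Nampt (26.8 to 73.2) lay under Cebpb and overlapped Cebpd (14.5 to 43.0), and Lep lay under all others. In CPM without length, Cebpa stood above Retn, and Cebpb and Nampt above Rarres2.

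Adipoq encodes adiponectin, which raises insulin sensitivity in liver and muscle. The gene lies on the plus strand of mm9 at chr16:23146609-23158041 and has 3 exons. Its level was 3382 and 2517 CPM in the vehicle samples and 2259 and 1676 CPM with SR-3420. It was 2863, 3396 and 2944 CPM with triacsin C and 1039, 988 and 842 CPM once SR-3420 was added. With etomoxir it was 3079, 2565 and 2179.8 CPM, and 1349, 806 and 1162 CPM with etomoxir + SR-3420. In each arm every sample with SR-3420 lay under every sample without it. Adipoq fell by 1.68 (SE 0.21, adjusted p = 6.23e-05) with triacsin C and by 1.24 (SE 0.21, adjusted p = 0.000922) with etomoxir, to 0.312 of its control level in the former. Without inhibitor the log2 fold change was -0.58 (SE 0.25, adjusted p = 0.193), which was not called, though edgeR called it with the replicate number as a block (-0.68, adjusted p = 0.038). The mean over the arms fell by 1.17 (SE 0.13, adjusted p = 1.05e-05). Ordered by group mean, triacsin C (3068 ± 287 CPM, SD, n = 3), vehicle (2949 ± 612, n = 2) and etomoxir (2608 ± 451, n = 3) overlapped. SR-3420 alone came next (1968 ± 412, n = 2) and overlapped etomoxir. Etomoxir + SR-3420 (1105 ± 276, n = 3) and triacsin C + SR-3420 (956 ± 102, n = 3) overlapped each other and no other group. In these bulk samples, fewer cells of a type and less RNA per cell cannot be told apart.

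Promoters are shown for genes of this set that were called in the same comparisons, as 300 bases from 250 before the transcription start to 50 into the gene, taken from RefSeq on GRCm38.p6. An entry was found for 7 of the 9 genes, and Rarres2 and Cebpd had none. A search on both strands covered TTGCNNAA, a C/EBP-type sequence, TTGCATCA, a sequence for C/EBP paired with ATF factors, and the promoter elements CCAAT and TATAAA. Of the 32851 promoters of this length, 10.8% held TTGCNNAA, 0.895% TTGCATCA, 37.4% CCAAT and 13.6% TATAAA. The Adipoq promoter, on the plus strand at chr16:23146286-23146585, held CCAAT 3 times, with first bases 34 and 27 before the start on the minus strand (read as ATTGG) and 7 before it on the plus strand. These letters are in capitals:
Adipoq promoter: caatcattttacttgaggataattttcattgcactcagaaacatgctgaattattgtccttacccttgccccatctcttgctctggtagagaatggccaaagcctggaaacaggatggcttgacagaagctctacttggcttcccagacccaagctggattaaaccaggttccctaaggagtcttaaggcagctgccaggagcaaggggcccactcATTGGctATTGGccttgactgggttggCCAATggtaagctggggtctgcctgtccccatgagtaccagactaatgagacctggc
It held none of the other letters searched, and 50.0% of its bases were G or C, where the median promoter had 52.7%.

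Retn encodes resistin, which in mice is made by fat cells and lowers the response to insulin. It lies on the plus strand of mm9 at chr8:3655770-3659818 with 4 exons. Vehicle samples had 577 and 420.2 CPM, and those with SR-3420 325 and 264 CPM. Triacsin C samples had 538, 692 and 585 CPM against 188, 184 and 164 CPM with SR-3420 added. The etomoxir samples stood at 495, 436 and 369 CPM against 207, 144 and 178 CPM. No sample with SR-3420 reached the level of any control sample of its arm. Retn fell by 1.76 (SE 0.18, adjusted p = 1.42e-05) with triacsin C, by 1.30 (SE 0.18, adjusted p = 0.000206) with etomoxir and by 1.27 (SE 0.11, adjusted p = 1.27e-06) in the mean. It was the gene of the 9 called without inhibitor, where it fell by 0.76 (SE 0.21, adjusted p = 0.0475). This call near the threshold ended when any of 11 libraries was left out: both vehicle, both SR-3420 and all 3 triacsin C samples, triacsin C + SR-3420 replicates 1 and 3, etomoxir replicate 2 and etomoxir + SR-3420 replicate 3. The adjusted p was then 0.053 to 0.277 and the log2 fold change -0.96 to -0.51. It also ended, at an adjusted p of 0.259, when the edgeR model held no other groups. In group means Retn was highest with triacsin C (605 ± 79.1 CPM, SD, n = 3), whose samples overlapped those of vehicle (498 ± 111, n = 2). Etomoxir (433 ± 63.0, n = 3) overlapped vehicle but not triacsin C, SR-3420 alone followed (295 ± 43.2, n = 2), and triacsin C + SR-3420 (179 ± 12.9, n = 3) and etomoxir + SR-3420 (176 ± 31.5, n = 3) overlapped.

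The Retn promoter, on the plus strand of GRCm38.p6 at chr8:3655520-3655819, is shown because Retn and Adipoq fell in the same comparisons. It held none of the letters searched and has no capitals:
Retn promoter: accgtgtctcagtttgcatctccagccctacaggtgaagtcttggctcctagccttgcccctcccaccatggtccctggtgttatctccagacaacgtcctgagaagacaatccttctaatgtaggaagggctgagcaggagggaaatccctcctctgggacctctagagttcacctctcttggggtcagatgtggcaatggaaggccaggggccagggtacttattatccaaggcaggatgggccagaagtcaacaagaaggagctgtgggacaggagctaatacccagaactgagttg
Of its bases, 54.0% were G or C.

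Cfd encodes adipsin (complement factor D), the protease of the alternative complement pathway. It lies on the plus strand of mm9 at chr10:79353598-79355405 with 5 exons. The gene took 0.245 to 1.93% of all counted reads in a sample, and 28.3 to 331 reads per counted base. The authors reduced reads of the same position and length to 1. Whether this limited the counts of such a short, abundant gene was not tested. The level was 15843 and 9118 CPM with vehicle and 15282.5 and 6196 CPM with SR-3420, groups that overlapped. With triacsin C it was 13492, 20880.5 and 12711.5 CPM, and with triacsin C + SR-3420 4579.5, 3737 and 2452 CPM, with a wide gap between the groups. The etomoxir samples had 16453.2, 10400.6 and 6763.5 CPM and the etomoxir + SR-3420 samples 6762.8, 2421.2 and 3155.0 CPM. Here the lowest control and the highest SR-3420 sample were less than 1 CPM apart. Cfd fell by 2.13 (SE 0.47, adjusted p = 0.00343) with triacsin C, by 1.45 (SE 0.47, adjusted p = 0.0366) with etomoxir and by 1.26 (SE 0.29, adjusted p = 0.00299) in the mean, and its log2 fold change without inhibitor was -0.22 (SE 0.56, adjusted p = 0.867). The call with etomoxir ended without etomoxir replicate 1 (-1.06, adjusted p = 0.138) or 2 (-1.50, adjusted p = 0.0705) and without etomoxir + SR-3420 replicate 2 (-1.18, adjusted p = 0.147) or 3 (-1.29, adjusted p = 0.101), and with the edgeR model limited to the compared groups (-1.44, adjusted p = 0.101). Group means ran from 15695 ± 4508 CPM (SD, n = 3) with triacsin C to 3590 ± 1071 CPM (n = 3) with triacsin C + SR-3420.

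The Cfd promoter, on the plus strand of GRCm38.p6 at chr10:79890603-79890902, is given beside those of Adipoq and Retn, since all 3 genes fell with either inhibitor present. It too held none of the letters searched:
Cfd promoter: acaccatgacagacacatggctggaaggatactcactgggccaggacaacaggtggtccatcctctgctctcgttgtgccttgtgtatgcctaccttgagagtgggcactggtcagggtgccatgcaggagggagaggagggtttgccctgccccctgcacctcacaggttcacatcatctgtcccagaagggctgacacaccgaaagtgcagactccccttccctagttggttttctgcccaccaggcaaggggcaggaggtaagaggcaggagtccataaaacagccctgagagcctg
G and C made up 57.7% of it.

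Rarres2 encodes the precursor of chemerin, an attractant of immune cells that also acts on fat cells. It lies on the minus strand of mm9 at chr6:48519697-48522669, has 6 exons and overlaps Lrrc61 on the plus strand. Whether reads were counted by strand is not given in the sources used here, so reads in the overlap of Rarres2 and Lrrc61 cannot be told apart. Lrrc61 had a median of 16.6 CPM, and Lrrc61 fell by 0.90 (adjusted p = 0.0014) with triacsin C, by 1.38 (adjusted p = 0.000126) with etomoxir and by 1.13 (adjusted p = 3.04e-06) in the mean. It also fell where Rarres2 was not called, by 1.11 (adjusted p = 0.00666) without inhibitor and by 0.80 (adjusted p = 0.0133) with triacsin C alone, where the log2 fold change of Rarres2 was 0.27. The former call of Lrrc61 ended without SR-3420 replicate 1 (-0.93, adjusted p = 0.0882) and with only the compared groups (-1.14, adjusted p = 0.152), and the latter without vehicle replicate 2 (0.0731) or 3 (0.085) or triacsin C replicate 2 (0.056). Rarres2 stood at 87.4 and 103 CPM with vehicle and 64.0 and 73.3 CPM with SR-3420. The samples had 118, 111 and 115 CPM with triacsin C and 50.1, 49.4 and 57.6 CPM with triacsin C + SR-3420. They had 77.5, 76.7 and 71.3 CPM with etomoxir and 53.5, 38.4 and 57.8 CPM with etomoxir + SR-3420. In each arm the groups did not overlap, with SR-3420 on the lower side. Rarres2 fell by 1.13 (SE 0.15, adjusted p = 7.42e-05) with triacsin C, by 0.59 (SE 0.14, adjusted p = 0.00918) with etomoxir and by 0.73 (SE 0.09, adjusted p = 2.5e-05) in the mean. Without inhibitor its log2 fold change was -0.47 (SE 0.18, adjusted p = 0.127), which was not called, though edgeR called it with the replicate number as a block (-0.54, adjusted p = 0.0218). In an edgeR model of the compared groups alone, the etomoxir call ended (-0.61, adjusted p = 0.0898). The triacsin C group (115 ± 3.73 CPM, SD, n = 3) lay above vehicle (95.4 ± 11.2, n = 2) with no overlap, and etomoxir (75.1 ± 3.39, n = 3) lay under vehicle with no overlap, though neither inhibitor difference was called. Etomoxir overlapped SR-3420 alone (68.6 ± 6.57, n = 2), and the lowest groups, triacsin C + SR-3420 (52.4 ± 4.53, n = 3) and etomoxir + SR-3420 (49.9 ± 10.2, n = 3), overlapped each other.

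Lep encodes leptin, which tells the brain of the body's fat store. It lies on the plus strand of mm9 at chr6:29010221-29023876 with 3 exons, and these libraries held 2 to 38 counts of it. Its level was 0.658 and 0.830 CPM with vehicle and 2.24 and 0.317 CPM with SR-3420. It was 0.430, 1.23 and 0.455 CPM with triacsin C, and 0.896, 0.843 and 0.844 CPM with SR-3420 added. With etomoxir it was 0.658, 0.158 and 0.829 CPM, and with etomoxir + SR-3420 1.45, 0.438 and 0.765 CPM. The groups of every arm overlapped. The log2 fold changes were 0.80 (SE 0.81, adjusted p = 0.628), 0.23 (SE 0.71, adjusted p = 0.818) and 0.74 (SE 0.69, adjusted p = 0.477) in the 3 arms and 0.59 (SE 0.43, adjusted p = 0.277) in the mean, and no difference of leptin transcripts was detected. Lep was the only promoter of the 7 that held TTGCNNAA, with its first base 55 before the start, in 8 bases that read the same on both strands.

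Nampt encodes an enzyme that makes NAD from nicotinamide and is also released from cells as visfatin. It lies on the plus strand of mm9 at chr12:33505200-33538234 with 11 exons. Its samples did not separate by treatment. Nampt measured 154 and 244 CPM with vehicle and 133 and 228 CPM with SR-3420. It measured 169.9, 141 and 191 CPM with triacsin C and 129, 153 and 253 CPM with triacsin C + SR-3420. The etomoxir samples had 122, 178 and 280.0 CPM and the etomoxir + SR-3420 samples 126, 179 and 333 CPM. Groups overlapped in every arm, and replicate 3 was the highest sample of each of the 6 groups. Of the variance of its log2 CPM over 16 samples, 4.41% lay between groups and a further 79.7% followed the replicate number. Its log2 fold changes were -0.14 (SE 0.48, adjusted p = 0.898), 0.09 (SE 0.39, adjusted p = 0.869) and 0.14 (SE 0.39, adjusted p = 0.839) in the vehicle, triacsin C and etomoxir arms. The mean was 0.03 (SE 0.24, adjusted p = 0.932), with a 95% interval of -0.49 to 0.55.

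**Figure D2:**
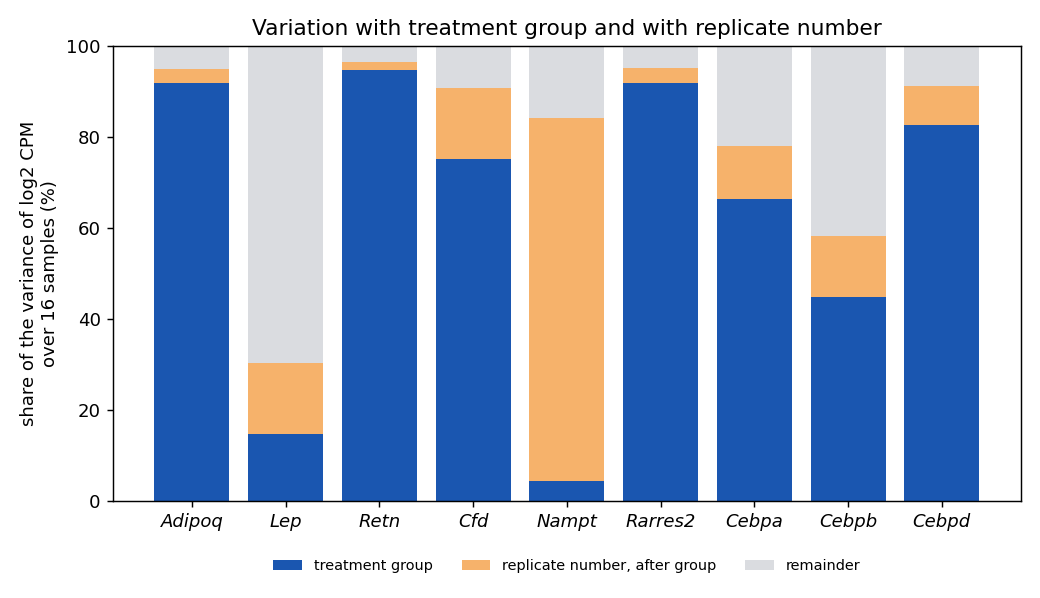
Share of the variance of log2 CPM over the 16 samples (y axis, %) that lay between the 6 treatment groups, that followed the replicate number after group, and that remained, for each gene (x axis). The group share was 94.6% for Retn, 91.9% for Rarres2 and 91.8% for Adipoq, and 4.41% for Nampt.

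The other genes divided differently. The share between groups was 82.7% for Cebpd, 75.2% for Cfd, 66.2% for Cebpa, 44.7% for Cebpb and 14.6% for Lep. Replicate number took 15.6% for Cfd, 13.6% for Cebpb, 11.8% for Cebpa, 8.58% for Cebpd and at most 3.32% for Adipoq, Retn and Rarres2. For Lep, 69.8% remained after both, and for Cebpb 41.7%. Group and number each take some share by chance, and no such baseline was computed. In an edgeR test of the replicate number, Cfd was called (adjusted p = 0.00323), and Cebpb (0.197), Cebpa (0.094) and Cebpd (0.0544) were not.

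Cebpa encodes C/EBPα, the family member of the mature adipocyte. It is a gene of 1 exon on the plus strand of mm9 at chr7:35904312-35906951. Vehicle samples held 2408 and 1719 CPM and SR-3420 samples 2162 and 1308 CPM. Triacsin C samples held 1576, 2111 and 1418 CPM, and triacsin C + SR-3420 samples 997, 814 and 723 CPM. The level was 2144, 1973 and 1532 CPM with etomoxir and 1873, 837 and 1547 CPM with etomoxir + SR-3420. The groups were apart in the triacsin C arm and overlapped in the other two. Cebpa fell by 1.01 (SE 0.29, adjusted p = 0.0147) with triacsin C, and its log2 fold change was -0.25 (SE 0.35, adjusted p = 0.741) without inhibitor and -0.41 (SE 0.29, adjusted p = 0.333) with etomoxir, where it was not called. The difference between the responses with triacsin C and without inhibitor was -0.76 (SE 0.45, adjusted p = 0.425), and between triacsin C and etomoxir -0.60 (SE 0.41, adjusted p = 0.654), neither of which was called. The mean response fell by 0.56 (SE 0.18, adjusted p = 0.0215). The triacsin C call ended without triacsin C replicate 2 (-0.83, adjusted p = 0.0684) and without triacsin C + SR-3420 replicate 2 (-0.94, adjusted p = 0.0529) or 3 (-0.91, adjusted p = 0.0584). The mean call ended without vehicle replicate 2 (-0.47, adjusted p = 0.0744) or SR-3420 replicate 3 (-0.45, adjusted p = 0.0782). Group means ran from 2063 ± 487 CPM (SD, n = 2) with vehicle to 845 ± 140 CPM (n = 3) with triacsin C + SR-3420, and each group overlapped its neighbours in this order.

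The Cebpa promoter at chr7:35119043-35119342 of GRCm38.p6, plus strand, held TATAAA 30 bases before the start, and that of Cebpb at chr2:167688665-167688964, plus strand, held TATAAA with its first base 22 bases into the gene. Both are shown because these C/EBP genes moved in opposite directions in the mean response, with TATAAA in capitals:
Cebpa promoter: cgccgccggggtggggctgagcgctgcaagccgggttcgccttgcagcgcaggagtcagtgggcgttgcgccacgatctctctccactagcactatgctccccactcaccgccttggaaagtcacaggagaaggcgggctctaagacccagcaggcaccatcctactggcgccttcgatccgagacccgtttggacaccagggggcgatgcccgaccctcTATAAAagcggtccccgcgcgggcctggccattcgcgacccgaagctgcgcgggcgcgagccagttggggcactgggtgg
Cebpb promoter: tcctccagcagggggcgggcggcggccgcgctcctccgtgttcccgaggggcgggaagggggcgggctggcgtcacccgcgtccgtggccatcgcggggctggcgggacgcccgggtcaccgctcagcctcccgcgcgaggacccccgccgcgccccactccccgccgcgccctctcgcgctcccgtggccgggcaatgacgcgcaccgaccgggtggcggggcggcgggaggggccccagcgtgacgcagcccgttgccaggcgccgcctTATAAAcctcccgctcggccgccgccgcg
Neither held TTGCNNAA, TTGCATCA or CCAAT. The G and C content was 67.3% for Cebpa and 80.7% for Cebpb.

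Cebpb encodes C/EBPβ, which is induced early in differentiation and by cAMP, stress and inflammatory signals. It is a gene of 1 exon on the plus strand of mm9 at chr2:167514415-167515932. The samples had 224 and 128 CPM with vehicle and 673 and 209 CPM with SR-3420. Levels were 147, 390.1 and 137 CPM with triacsin C and 569, 344 and 248 CPM with triacsin C + SR-3420. Etomoxir samples had 269.7, 167 and 211 CPM and etomoxir + SR-3420 samples 793, 217 and 695 CPM. Every arm had at least 1 SR-3420 sample within the range of its controls, and replicate 1 was the highest SR-3420 sample in each arm. The mean response rose by 1.17 (SE 0.35, adjusted p = 0.0147), or 2.25-fold. No single arm was called: the log2 fold changes were 1.33 (SE 0.69, adjusted p = 0.286) without inhibitor, 0.79 (SE 0.56, adjusted p = 0.289) with triacsin C and 1.40 (SE 0.56, adjusted p = 0.0862) with etomoxir. DESeq2 called the etomoxir arm (1.40, adjusted p = 0.039), as did edgeR with the replicate number as a block (1.41, adjusted p = 0.0261). The mean call ended without vehicle replicate 3 (1.06, adjusted p = 0.0524) or SR-3420 replicate 1 (0.81, adjusted p = 0.0752), and the etomoxir arm was called without etomoxir + SR-3420 replicate 2 (1.79, adjusted p = 0.0428). Group means were 176 ± 68.0 CPM (SD, n = 2) with vehicle, 216 ± 51.6 (n = 3) with etomoxir, 225 ± 143 (n = 3) with triacsin C, 387 ± 165 (n = 3) with triacsin C + SR-3420, 441 ± 328 (n = 2) with SR-3420 and 568 ± 308 (n = 3) with etomoxir + SR-3420, and each group overlapped its neighbours in this order.

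Cebpd encodes C/EBPδ, the other early family member. It lies on the plus strand of mm9 at chr16:15887379-15889638 and overlaps Spidr on the minus strand, so that reads in the overlap cannot be told apart. Spidr had a median of 26.8 CPM and rose by 0.98 with triacsin C (adjusted p = 0.000243), by 0.43 with etomoxir (adjusted p = 0.045), where Cebpd was called too, and by 0.59 in the mean (adjusted p = 0.000179). The etomoxir call of Spidr held in 3 of 16 fits with a library left out (adjusted p of 0.0511 to 0.166 in the rest). It also ended with only the compared groups (0.221), no filter on counts (0.129), library size alone (0.161) and DESeq2 size factors (0.0504). Cebpd stood at 43.5 and 33.4 CPM with vehicle and 65.0 and 66.8 CPM with SR-3420. With triacsin C it was at 67.4, 83.3 and 65.0 CPM, and with triacsin C + SR-3420 at 70.4, 71.1 and 47.9 CPM. With etomoxir it was at 40.8, 35.2 and 28.2 CPM, and with etomoxir + SR-3420 at 67.6, 54.8 and 58.8 CPM. SR-3420 samples lay above all controls in the arms without inhibitor and with etomoxir, and among or under the controls in the triacsin C arm. Cebpd rose by 0.80 (SE 0.19, adjusted p = 0.00692) with etomoxir and by 0.46 (SE 0.12, adjusted p = 0.00513) in the mean. The log2 fold change without inhibitor was 0.78 (SE 0.23, adjusted p = 0.0548), which edgeR did not call and DESeq2 did (0.76, adjusted p = 0.02). The edgeR call was made without triacsin C + SR-3420 replicate 3 (0.78, adjusted p = 0.0363) or etomoxir replicate 3 (0.78, adjusted p = 0.0402). It was also made with the replicate number as a block (0.80, adjusted p = 0.00715).

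In the triacsin C arm the log2 fold change of Cebpd was -0.19 (SE 0.18, adjusted p = 0.454). The response with triacsin C minus that without inhibitor was -0.96 (SE 0.29, adjusted p = 0.105), and minus that with etomoxir -0.99 (SE 0.26, adjusted p = 0.0761). Neither difference was called by edgeR, and DESeq2 called the latter (-0.96, adjusted p = 0.0187). Triacsin C alone set the starting level of this arm apart. With triacsin C alone Cebpd rose by 0.90 (SE 0.21, adjusted p = 0.0131) against vehicle, and none of the 3 triacsin C samples overlapped vehicle. That call ended without vehicle replicate 3 (0.72, adjusted p = 0.169) or triacsin C replicate 2 (0.78, adjusted p = 0.0534). In group means, triacsin C (71.9 ± 9.97 CPM, SD, n = 3), SR-3420 (65.9 ± 1.29, n = 2), triacsin C + SR-3420 (63.2 ± 13.2, n = 3) and etomoxir + SR-3420 (60.4 ± 6.55, n = 3) overlapped in turn. Vehicle (38.4 ± 7.16, n = 2) and etomoxir (34.7 ± 6.34, n = 3) overlapped each other and lay under all samples of those 4 groups.

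**Figure D3:**
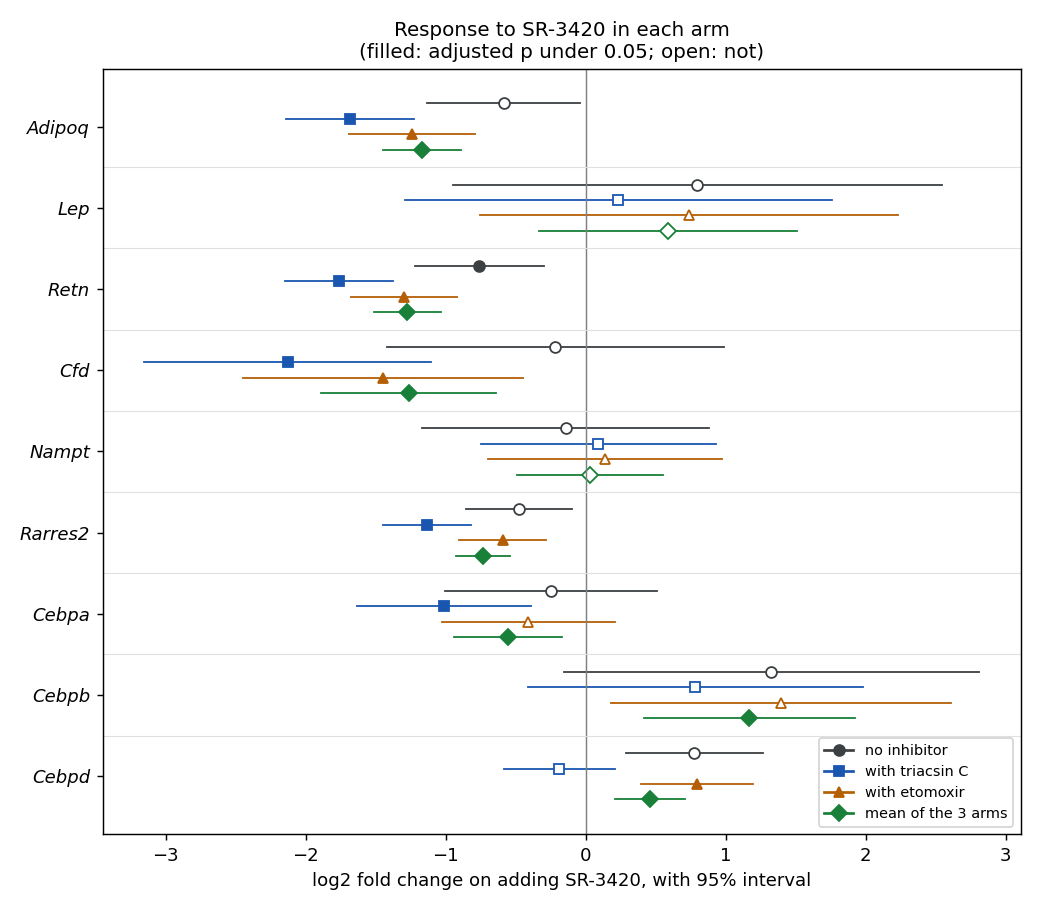
Log2 fold change on adding SR-3420 (x axis) of each gene (y axis) without inhibitor, with triacsin C, with etomoxir and in the mean of the 3 arms. Lines are 95% intervals and filled points had an adjusted p under 0.05; Adipoq, Retn, Cfd and Rarres2 lie at or under -0.59 in both inhibitor arms, and Cebpb lies above 0 throughout, called in the mean alone.

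The inhibitors were then compared without SR-3420. Triacsin C alone against vehicle called 1 of the 9 genes, Cebpd, where 11.7% of all genes were called, and the groups of 2 genes, Rarres2 and Cebpd, did not overlap (43.3% of all genes). Etomoxir alone called 0 of 9 in edgeR, where 0.0235% of all genes were called. None of the 9 had an unadjusted p under 0.05 in that comparison, DESeq2 called 0, and Rarres2 was the 1 gene without overlap (9.72% of all genes). The median log2 fold change of the 9 genes was 0.27 with triacsin C alone and -0.16 with etomoxir alone, where that of all genes was 0.07 and 0.01. These comparisons share the vehicle samples.

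With SR-3420 present, triacsin C + SR-3420 was set against SR-3420 alone to ask what the inhibitor adds to the response. Both Adipoq and Retn were called, 2 of the 9 genes, where 4.58% of all genes were called. Adipoq fell by 1.04 (SE 0.23, adjusted p = 0.0202) and Retn by 0.72 (SE 0.19, adjusted p = 0.05), the adjusted p of Retn lying just under the threshold before rounding. Samples did not overlap for 5 genes (35.5% of all genes), which were Adipoq, Retn, Cfd, Rarres2 and Cebpa. The log2 fold changes of the other three were -1.58 (SE 0.50, adjusted p = 0.0966) for Cfd, -0.39 (SE 0.16, adjusted p = 0.2) for Rarres2 and -1.04 (SE 0.32, adjusted p = 0.0834) for Cebpa. The call of Adipoq ended without SR-3420 replicate 1 (-0.81, adjusted p = 0.284) and without triacsin C + SR-3420 replicate 2 (-1.07, adjusted p = 0.0543) or 3 (-0.96, adjusted p = 0.0912). That of Retn ended without any of 11 libraries: both SR-3420 samples, all triacsin C and triacsin C + SR-3420 samples, etomoxir replicates 1 and 2 and etomoxir + SR-3420 replicate 3. Its adjusted p was then 0.0519 to 0.469. Both calls also ended with only the compared groups in the edgeR model, at 0.0757 for Adipoq and 0.113 for Retn, and that of Retn with DESeq2 size factors, at 0.0575. DESeq2 called 4 of the 9, with Cfd (-1.56, adjusted p = 0.027) and Cebpa (-1.02, adjusted p = 0.0307) added, and in edgeR Cebpa was called without etomoxir + SR-3420 replicate 2 (-1.04, adjusted p = 0.0373).

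Etomoxir + SR-3420 against SR-3420 called 0 of 9 in edgeR, where 0.00782% of all genes were called. In this comparison 4 genes had an unadjusted p under 0.05 and DESeq2 called 0. The log2 fold changes were -0.83 (SE 0.23, adjusted p = 0.277) for Adipoq, -0.74 (SE 0.19, adjusted p = 0.271) for Retn, -1.39 (SE 0.50, adjusted p = 0.425) for Cfd and -0.46 (SE 0.16, adjusted p = 0.403) for Rarres2, and 3 of them, Adipoq, Retn and Rarres2, had no overlap (18.3% of all genes). This comparison and the preceding one share the SR-3420 samples.

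Responses were also tested against each other. For triacsin C against no inhibitor, edgeR called 0 of 9 differences, where 2.51% of all genes were called. There 5 genes had an unadjusted p under 0.05 and DESeq2 called 2, Adipoq (-1.06, adjusted p = 0.0371) and Retn (-0.96, adjusted p = 0.0235). The edgeR differences were -1.10 (SE 0.33, adjusted p = 0.0994) for Adipoq, -1.00 (SE 0.28, adjusted p = 0.0758) for Retn, -1.91 (SE 0.73, adjusted p = 0.195) for Cfd and -0.66 (SE 0.23, adjusted p = 0.156) for Rarres2. For etomoxir against no inhibitor, edgeR called 0 of 9, where 0% of all genes were called, none had an unadjusted p under 0.05 and DESeq2 called 0. For triacsin C against etomoxir, edgeR called 0 of 9, where 2.29% of all genes were called, 2 genes had an unadjusted p under 0.05 and DESeq2 called 1, Cebpd. Those 2 were Cebpd and Rarres2, whose difference was -0.54 (SE 0.20, adjusted p = 0.251).

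Markers of adipocytes and of their precursors were summed in each sample. The summed CPM of the 6 adipocyte markers was 16434.5 and 16267 with vehicle and 12807 and 12121 with SR-3420. It was 16867, 17414 and 17592 with triacsin C, and 7125, 7161 and 8083 with triacsin C + SR-3420. With etomoxir it was 16193, 15435 and 18890.5, and with etomoxir + SR-3420 it was 9038, 7018 and 12363. In each arm the SR-3420 samples were under the controls, as for Adipoq and Retn. Of the 6 markers, 1, 5 and 5 fell in the vehicle, triacsin C and etomoxir arms, where 7.54%, 36.9% and 25.3% of all genes were called. With a library left out these counts ranged over 0 to 1, 4 to 5 and 1 to 5. With only the compared groups in the model they were 0, 5 and 0, and without the filter on counts the vehicle arm had 0.

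The 9 preadipocyte and fibroblast markers, led by Col1a1, summed to 1894 and 1639 CPM with vehicle and 4061 and 2956 CPM with SR-3420. They summed to 2630.1, 2312 and 2001 CPM with triacsin C, and 4599, 3860.4 and 3074 CPM with triacsin C + SR-3420. Sums were 2284, 1656 and 1108 CPM with etomoxir, and 4768, 3479.9 and 2349 CPM with etomoxir + SR-3420. SR-3420 samples were above the controls in each arm. Of the 9 markers 0, 3 and 6 were called in the vehicle, triacsin C and etomoxir arms, all of them up, and in the mean 9 of 9 rose while 6 of 6 adipocyte markers fell. The shares of all genes called were 7.54%, 36.9% and 25.3% in the arms and 46.2% in the mean. In the arm with 0 calls by edgeR, 3 of the 9 had an unadjusted p under 0.05 and DESeq2 called 2, both up. A left-out library gave 0 to 1, 1 to 5 and 3 to 8 calls in the 3 arms, the compared groups alone 0 in the etomoxir arm, and DESeq2 6 in the triacsin C arm. The part of these markers in the adipokine and C/EBP results was not tested.

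**Figure D4:**
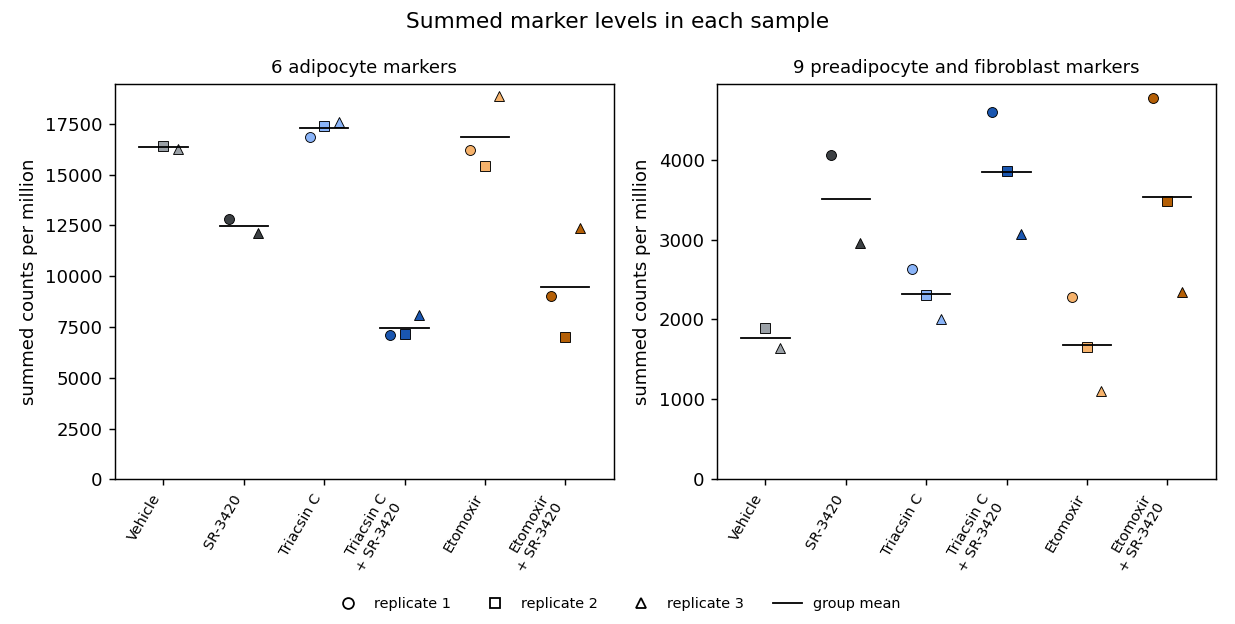
Summed CPM of 6 adipocyte markers (left) and 9 preadipocyte and fibroblast markers (right) in every sample of the 6 groups (x axis), with point shapes for replicate numbers and lines for group means. With triacsin C + SR-3420 the adipocyte sum lay between 7125 and 8083 CPM, under the 16867 to 17592 CPM of triacsin C.

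Markers of other cells were low. As background to the calls below, 7.54%, 36.9% and 25.3% of all genes were called in the vehicle, triacsin C and etomoxir arms. In the mean 46.2% were called, and with triacsin C alone 11.7%. The 7 macrophage markers summed to a median of 14.3 CPM, with Cd14 the most abundant and Emr1 at 0 in 7 samples. Triacsin C samples stood apart at 23.0 to 26.7 CPM, where all other samples had 9.83 to 17.3 CPM. Of the 3 tested, 1 fell in the mean (1 in each inhibitor arm) and 1 rose with triacsin C alone. With a library left out, the falls in the mean and in the etomoxir arm each ranged over 0 to 1. The 5 endothelial markers summed to a median of 4.19 CPM, with Vwf the most abundant and Pecam1 at 0 in 2 samples, and in the mean both of the 2 tested rose (1 of them with triacsin C, 1 with etomoxir). The 7 skeletal muscle markers summed to 14.1 CPM, with Des the most abundant and Myf5 at 0 in 15 samples, and in the mean 1 of the 3 tested rose and 1 fell (1 fell in each inhibitor arm). The 9 brown markers summed to 249 to 324 CPM with triacsin C and, without overlap, to 126 to 149 CPM with triacsin C + SR-3420. In the other two arms the sums overlapped, at 287 to 364 CPM with vehicle and 309 to 343 CPM with SR-3420, and at 295 to 311 CPM with etomoxir and 185 to 303 CPM with etomoxir + SR-3420. Of the 8 tested, 1 fell without inhibitor, 1 rose and 4 fell in the triacsin C arm, 1 fell in the etomoxir arm, 1 rose and 1 fell in the mean, and 3 fell with triacsin C alone. A left-out library left 0 to 1 of the fall without inhibitor, 2 to 4 of those in the triacsin C arm and 1 to 3 of those with triacsin C alone.

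Other proteins of the C/EBP family and the TRIB pseudokinases give the setting of Cebpa, Cebpb and Cebpd. Of the 5 tested, 2 rose without inhibitor, 2 rose and 1 fell with triacsin C, 1 rose with etomoxir, and 2 rose and 1 fell in the mean. The shares of all genes called were 7.54%, 36.9%, 25.3% and 46.2% in the same order, and 11.7% with triacsin C alone. Ddit3, whose product CHOP pairs with C/EBP proteins in stressed cells, rose in each arm, by 2.19 (adjusted p = 0.000791) without inhibitor, 1.98 (adjusted p = 4.74e-05) with triacsin C and 1.88 (adjusted p = 0.000139) with etomoxir. Cebpg, another partner, was not called in any arm, at 0.05, 0.62 and 0.31 in the same order. In the mean Trib3 rose by 0.59 (adjusted p = 0.000599) and Trib1 fell by 0.28 (adjusted p = 0.00557). By arm, Trib1 fell by 0.88 (adjusted p = 8.35e-05) with triacsin C, and was not called without inhibitor (0.06, adjusted p = 0.858) or with etomoxir (-0.03, adjusted p = 0.894). Trib3 rose by 0.86 (adjusted p = 0.00176) with triacsin C and by 0.92 (adjusted p = 0.0185) without inhibitor, and was not called with etomoxir (-0.02, adjusted p = 0.955). Its call without inhibitor ended without vehicle replicate 3 (0.69, adjusted p = 0.175), SR-3420 replicate 1 (0.88, adjusted p = 0.1) or 3 (0.96, adjusted p = 0.0585), and with only the compared groups (0.90, adjusted p = 0.197). With triacsin C alone 1 rose, Trib1, by 0.87 (adjusted p = 0.000665).

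Of the 18 other adipogenic transcription factors, 3 rose and 1 fell without inhibitor, 10 rose and 1 fell with triacsin C, 5 rose and 5 fell with etomoxir, and 8 rose and 5 fell in the mean. Calls over all genes made up 7.54%, 36.9%, 25.3% and 46.2% in the same order, and 11.7% with triacsin C alone. Egr2 and Klf4, early factors that act ahead of Cebpb in differentiation, rose by 2.48 (adjusted p = 2.92e-09) and 2.03 (adjusted p = 2.57e-08) in the mean, while Klf15 fell by 1.04 (adjusted p = 0.000244) and Stat5a by 0.68 (adjusted p = 0.00191). Triacsin C alone raised 1 and lowered 9 of the 18, among them Zfp423, which fell by 2.45 (adjusted p = 0.000817), and Prdm16, a factor of brown identity, which fell by 2.14 (adjusted p = 0.000255). The 14 adipocyte genes taken as targets of this program, 5 of which are also adipocyte markers, included 1 that fell in the vehicle arm, 11 in the triacsin C arm and 10 in the etomoxir arm. In the mean 12 of the 14 fell and 1 rose, and triacsin C alone lowered 2. In the mean the log2 fold change was -1.10 (adjusted p = 5.88e-05) for Scd1 and -0.93 (adjusted p = 0.000801) for Cidec, whereas Pck1 rose by 0.58 (adjusted p = 0.00789). Pck1 was called by edgeR in no single arm (DESeq2 called it without inhibitor, at 1.03, adjusted p = 0.0182).

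Of 20 other secreted factors tested, 7 rose and none fell without inhibitor, 7 rose and 4 fell with triacsin C, 8 rose and 2 fell with etomoxir, and 10 rose and 3 fell in the mean. Calls over all genes made up 7.54%, 36.9%, 25.3% and 46.2% in the same order, and 11.7% with triacsin C alone. Il6 rose by 2.91 (adjusted p = 0.000176) and Fgf21 by 2.48 (adjusted p = 7.07e-09) in the mean, and Ptgds fell by 2.22 (adjusted p = 0.000115) and Igf1 by 1.06 (adjusted p = 0.00359). Except for Igf1 these transcripts were scarce, with vehicle means of 0.396 CPM for Il6, 0.715 for Fgf21 and 1.43 for Ptgds. With triacsin C alone 4 of the 20 factors rose and none fell. In the complement list, the pathway of Cfd, 0 of 7 were called by edgeR without inhibitor (1 with an unadjusted p under 0.05, 0 by DESeq2), while 5 fell with triacsin C and 4 with etomoxir. In the mean 4 fell, among them Cd59a by 1.06 (adjusted p = 0.000684) and C3, the central component of the pathway, by 0.92 (adjusted p = 0.000656). With triacsin C alone 1 rose.

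Of 9 adipokine receptors and secretion factors tested, 1 rose without inhibitor, 2 rose and 2 fell with triacsin C, 2 rose and 1 fell with etomoxir and 0 were called by edgeR with triacsin C alone (1 with an unadjusted p under 0.05, 0 by DESeq2). The shares of all genes called were 7.54%, 36.9% and 25.3% in the 3 arms, close to those of this list, and 11.7% with triacsin C alone. In the mean Ero1l, an oxidase that helps adiponectin leave the endoplasmic reticulum, rose by 2.02 (adjusted p = 3.35e-05), as did Cap1, a binding partner of resistin, by 0.35 (adjusted p = 0.00166). Gstk1, which takes part in adiponectin assembly, fell by 1.07 (adjusted p = 0.000623) and Adipor2, a receptor of adiponectin, by 0.80 (adjusted p = 0.000132). Gstk1 was scarce, at a vehicle mean of 2.52 CPM. Around Nampt, 10 genes of NAD synthesis and use were tested: 1 rose without inhibitor, 2 rose and 2 fell with triacsin C, 1 rose and 1 fell with etomoxir, and 1 rose and 1 fell with triacsin C alone. In the 3 arms these counts too were close to the share of all genes called. In the mean Nmnat2, which makes NAD in the step after Nampt, rose by 1.47 (adjusted p = 3.57e-07), and Nmrk1 fell by 0.81 (adjusted p = 5.6e-05) and Parp1 by 0.31 (adjusted p = 0.00427). Nnmt rose by 0.31 (adjusted p = 0.0271), a call that ended without vehicle, SR-3420 or triacsin C + SR-3420 replicate 3 or triacsin C replicate 1 or 3, at an adjusted p of 0.0513 to 0.0921.

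Several counts of these lists rested on single libraries or on the groups in the model. Without inhibitor, the compared groups alone gave 1 rise in the C/EBP and TRIB list, 2 among other secreted factors, and 0 among receptors and secretion factors, NAD genes and adipocyte targets. A left-out library gave 1 to 2 rises in the C/EBP and TRIB list, 0 to 1 among receptors and secretion factors (0 with library size alone), and 0 to 2 falls of targets. The fall among adipogenic factors ranged over 0 to 2, with 2 by DESeq2, 4 with library size alone, and 0 with no filter or with the compared groups. In the triacsin C arm a left-out library gave 6 to 10 rises of adipogenic factors, and 1 to 2 rises and 1 to 2 falls of NAD genes. In the etomoxir arm it gave 1 to 4 falls in the complement list, 4 to 10 of targets, 3 to 5 of adipogenic factors and 1 to 4 of secreted factors. There the compared groups alone gave 0, 2, 1 and 0 falls in the same order, and 3 rises of adipogenic factors. Among receptors and secretion factors the etomoxir rises were 1 to 2 with a library left out and 1 with the compared groups, no filter or library size alone, and the falls 1 to 2, with 0 for the compared groups and 2 by DESeq2, its size factors or library size alone. With triacsin C alone the NAD genes gave 0 to 1 rises and 0 to 2 falls, targets 1 to 3 falls, and the rise among adipogenic factors 0 to 1.

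Across the 16 samples, log2 CPM of Adipoq and Retn had a Pearson r of 0.98, Adipoq and Cfd 0.95, and Retn and Rarres2 0.91. For Cebpa, r was 0.84 with Adipoq and 0.85 with Cfd, whereas Cebpb and Cebpd had 0.48 with each other. Nampt and Cfd had -0.46. These values describe 16 points that share groups and replicate numbers. The genes most like Adipoq over the same samples were Pla2g16 and Naaa (both 0.99), and those most like Retn were Tmem205 (1.00) and Trap1 (0.99). Cfd was most like D10Jhu81e (1.00) and Bckdha (0.99), and Rarres2 most like 1110032A03Rik (0.96) and 2010003K11Rik (0.95). For Cebpa these were Dolpp1 (0.97) and Kank1 (0.95), for Cebpb Irf2bp2 and Twist1 (both 0.92), and for Cebpd Klf10 and Akap8l (both 0.95). Nampt was most like Sav1 (0.97) and Xiap (0.96), and Lep, at its few counts, most like Yy1 (0.87) and Ndn (0.76).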

How the data were processed

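Gene expression was measured by RNA sequencing in 16 samples of 6 groups. The authors deposited whole-number counts, made by aligning to mm9 (STAR 2.4.2a), reducing reads of the same position and length to 1 (HOMER) and counting by gene (iRNA-seq), without normalization. Whether this reduction limited the counts of short, abundant genes such as Cfd was not tested. Whether counting used the strand is not given in the sources used here, so Rarres2 and Lrrc61, and Cebpd and Spidr, cannot be told apart in their overlaps.

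From the counts, log2 fold changes were computed with edgeR 4.0.16 (R 4.3.3, limma 3.58.1) by glmQLFit and glmQLFTest, after TMM normalization and filterByExpr, in 1 model of 6 group means and no covariate. Each of 11 comparisons covered 12786 genes with Benjamini-Hochberg adjustment, and a call required an adjusted p under 0.05. CPM were scaled by TMM, and log2 CPM used a prior count of 2. Within groups, 14 pairs of replicates differed by 4.37 to 156 times the sampling noise (chi-square per degree of freedom), and 0 were identical.

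The genes named were the 9 members, at most 2 called genes per direction, list and comparison with the largest change, Ddit3 and Cebpg, the 2 genes most correlated with each member, and Pdk4 and Plin2; not every gene this allowed was printed. Cell type markers were named as a check. Members and lists were chosen with earlier results of these data known. Alternatives were DESeq2 1.42.0, its size factors, library size alone, no filter, only the compared groups, a replicate block, a required log2 fold change of at least 1, each sample left out in turn and levels without length. Promoters came from RefSeq on GRCm38.p6, gene positions on mm9 from the deposited table with 1 added to the start, and exon numbers from GENCODE vM1. The test was checked on simulated counts, and figures were drawn with matplotlib 3.10.9.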

Additional observations from a re-analysis of the deposited data

Results flagged for a closer look

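For Cebpd, SR-3420 samples lay on opposite sides of the control mean in the triacsin C arm and in each of the other two. Both SR-3420 samples lay 0.77 to 0.81 above the vehicle mean in log2 CPM, whereas the 3 triacsin C + SR-3420 samples lay between -0.58 and -0.01 of the triacsin C mean, the nearest of them almost on it, and overlapped the triacsin C samples. The test of the difference gave -0.96 (adjusted p = 0.105 in edgeR's quasi-likelihood test), so it was not called. With the replicate number as a block, the same test called it (-1.00, adjusted p = 0.0138). In the etomoxir arm the 3 samples with SR-3420 lay 0.67 to 0.98 above the etomoxir mean. Its difference from the triacsin C arm was -0.99 (adjusted p = 0.0761), which edgeR did not call and DESeq2 did (-0.96, adjusted p = 0.0187). With the block, edgeR called this difference too (-1.01, adjusted p = 0.00571).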

How the results depend on the processing

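Over the 9 genes and 11 comparisons, 21 of 99 gene results were called. Refitting them gave 476 values, of which 424 kept the call, 52 were no longer called and 0 changed sign. Of 1792 refits of uncalled results, 25 became called and 100 changed sign. Library size alone, the block with each sample left out and refits of list counts were chosen after seeing the data. The cause of these changes was not tested, except that a larger required change can only leave fewer calls.

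For SR-3420 against vehicle, where 1 of the 9 genes was called, DESeq2 called 2, only the compared groups 0, a required log2 fold change of at least 1 gave 0, and leaving out a sample 0 to 2. With etomoxir (5 called) the compared groups alone gave 3 and the required change 3, and in the mean response (7 called) the required change gave 4. Triacsin C alone (1 called) gave 0 with the required change and 0 to 1 with a sample left out. For triacsin C + SR-3420 against SR-3420 (2 called), DESeq2 gave 4, DESeq2 size factors 1, the compared groups alone 0, the required change 1 and leaving out a sample 0 to 3. DESeq2 called 2 differences of triacsin C against no inhibitor and 1 of triacsin C against etomoxir, where edgeR called 0. Leaving out a sample gave 4 to 5 with triacsin C, 4 to 5 with etomoxir and 6 to 7 in the mean.

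Replicate numbers were checked as pairs: the deviations of same-numbered samples from their group means had a mean correlation of 0.41 over 35 pairs of samples (-0.29 to 0.83, 27 over 0.1), and those of other pairs a mean of -0.20 over 71. Of the 16 samples, 11 correlated best with a sample of their own number. A test of the replicate number in edgeR called 7176 genes (56.1%), among them Nampt (adjusted p = 0.000561) and Cfd (adjusted p = 0.00323). Since not every pair was over 0.1 and the labels do not say what a number shares, the samples were analysed without pairs. With the replicate number as a block, the calls were 4 for SR-3420 against vehicle, where 19.1% of all genes were called. Against SR-3420 they were 4 for triacsin C + SR-3420 (23.5% of all genes) and 3 for etomoxir + SR-3420 (14.4%). For the differences they were 4 for triacsin C against no inhibitor (13.1%) and 1 for triacsin C against etomoxir (8.25%). In the etomoxir arm the block called 45.2% of all genes. The calls gained with the replicate block were Adipoq (-0.68, adjusted p = 0.038), Rarres2 (-0.54, adjusted p = 0.0218) and Cebpd (0.80, adjusted p = 0.00715) against vehicle, and Cebpb with etomoxir (1.41, adjusted p = 0.0261). Against SR-3420 they were Cfd and Cebpa for triacsin C + SR-3420, and Adipoq, Retn and Cfd for etomoxir + SR-3420, all down. The differences were Adipoq, Retn, Cfd and Cebpd (-1.00, adjusted p = 0.0138) for triacsin C against no inhibitor and Cebpd against etomoxir (-1.01, adjusted p = 0.00571). The block ended no call. With a sample left out of the replicate block fit they ranged over 0 to 5 for SR-3420 against vehicle, 5 to 6 with triacsin C, 5 to 6 with etomoxir, 6 to 7 in the mean, 1 to 2 for triacsin C alone, 1 to 5 and 0 to 4 for triacsin C + SR-3420 and etomoxir + SR-3420 against SR-3420, and 0 to 6 and 1 to 6 for the differences of triacsin C against no inhibitor and against etomoxir.

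Uncalled values that changed sign when a sample was left out ranged in log2 fold change, against vehicle, over -1.20 to 1.59 for Lep, -1.01 to 0.30 for Cfd, -0.58 to 0.23 for Nampt and -0.66 to 0.07 for Cebpa. With triacsin C they were -0.022 to 0.94 for Lep and -0.25 to 0.28 for Nampt, and with etomoxir -0.34 to 0.51 for Nampt. In the mean they were -0.072 to 0.86 for Lep and -0.13 to 0.16 for Nampt, which was -0.024 with library size alone. Lep had 2 to 38 counts per sample, and its replicates also differed at similar depth, with 38 and 5 counts in the SR-3420 samples.

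Over all genes, for SR-3420 against vehicle edgeR called 964, DESeq2 1569, the compared groups alone 46, the block 2438, the required change 430 and leaving out a sample 306 to 1096. With library size alone 467 rose and 572 fell (44.9% up), where 607 rose and 357 fell (63% up) with TMM. For triacsin C the 4722 calls became 7185 with the block and 1893 with the required change, and for etomoxir the 3234 became 1205 with the compared groups, 5776 with the block, 1136 with the required change and 1989 at the lowest with a sample left out. The mean's 5908 became 1125 with the required change. Triacsin C alone had 1497, with 3072 by the block, 705 with the required change and 702 to 1684 with a sample left out. Etomoxir alone had 3, with 17 by DESeq2, 6 by the block, 0 with the compared groups and 0 to 3 with a sample left out. The 585 of triacsin C + SR-3420 against SR-3420 became 1204 with DESeq2, 78 with the compared groups, 3008 with the block, 230 with the required change and 54 to 686 with a sample left out. The 1 of etomoxir + SR-3420 against SR-3420 became 86 with DESeq2, 1838 with the block, 0 with no filter, the compared groups, library size alone or the required change, and 0 to 12 with a sample left out. Of differences, triacsin C against no inhibitor had 321, with 809 by DESeq2, 163 with no filter, 1669 by the block and 53 to 377 with a sample left out. Etomoxir against no inhibitor had 0, with 9 by DESeq2 and 3 by the block, and triacsin C against etomoxir had 293, with 656 by DESeq2, 1055 by the block, 178 with the required change and 145 at the lowest with a sample left out.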
